A study of Caenorhabditis elegans with 2 samples.

Results

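One-sided promoters are stretches of up to 1 kb upstream of protein-coding transcript starts where all such starts lie on the same strand. The definition rests on annotated coding starts alone, and transcription was not measured. Of the 30000 regions that the authors called on both replicates together, 29978 were nuclear, and 7208 of these had their summit in a one-sided promoter. Summits within 100 bp of a transfer RNA (tRNA), small nucleolar RNA (snoRNA) or small nuclear RNA (snRNA) gene had been set aside, which removed 564 regions of any location. The strictest deposited set, the 791 peaks that passed the authors' irreproducible discovery rate (IDR) procedure, held 191 of the 7208 regions. Every one of the 191 stood within the first 791 regions of the list by score, and the first one-sided promoter region outside the set had rank 792, so the set amounts to a score limit here. These 191 are called IDR peaks.

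The regions come from chromatin immunoprecipitation sequencing (ChIP-seq) with an anti-GFP antibody in whole Caenorhabditis elegans late embryos, collected 6 hours after egg bleaching, with 2 biological replicates and both sexes pooled. The strain, OP677, has the genotype unc-119(tm4063) III; wgIs677, and its transgene adds CHE-1 with a GFP-FLAG tag at the C-terminus. The authors scored regions against a control alignment, but no untagged or second group was analysed here, so signal that does not need the tagged protein cannot be told apart from signal that does. Whole embryos also mix all cell types, and fewer carrying cells and less chromatin per cell cannot be told apart. No read counts are given, so the depth is unknown. Replicates share 1 strain, and all shares below are descriptions with exact binomial (Clopper-Pearson) 95% intervals that cover counting error over regions only, since regions are not replicates. No test between groups was possible with 1 group.

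CHE-1, a transcription factor with zinc fingers, is known for giving the ASE taste neurons their identity, and its binding core in ASE genes is GAAACC or GAAGCC. In C. elegans the leader of many messenger RNAs is replaced by trans-splicing, so that the annotated start of a gene is often the splice acceptor and transcription begins further upstream. Many genes also follow each other closely on the same strand, some of them as operons.

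The sequences that follow show the summit windows of the 4 highest one-sided promoter peaks. Each is 101 bases of build ce11 (WBcel235), centred on the summit and written 5′ to 3′ on the strand of the downstream gene. Capitals mark CGCACA, a 6-mer picked for its frequency at IDR summits in these data, or the CHE-1 core, on either strand.

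K12H4.5 (chrIII:8043913-8044013, + strand): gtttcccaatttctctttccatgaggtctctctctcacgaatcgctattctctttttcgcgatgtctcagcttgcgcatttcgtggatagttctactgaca
T13C5.6 (chrX:6207804-6207904, - strand): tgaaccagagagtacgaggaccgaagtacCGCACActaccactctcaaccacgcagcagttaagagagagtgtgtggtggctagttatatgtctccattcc
W01D2.3 (chrII:14804638-14804738, - strand): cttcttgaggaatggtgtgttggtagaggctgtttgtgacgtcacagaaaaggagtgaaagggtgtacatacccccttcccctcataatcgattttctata
ftt-2 (chrX:11605966-11606066, - strand): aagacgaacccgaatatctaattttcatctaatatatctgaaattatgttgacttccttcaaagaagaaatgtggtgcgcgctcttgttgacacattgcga

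T13C5.6 was the only 1 of these 4 windows with CGCACA, and none of them had the CHE-1 core. Of the lower-ranked peaks with the same 6-mer, 3 examples from the 20 highest are shown here, those of rpl-3, usp-4 and F39G3.3.

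rpl-3 (chrIII:3867521-3867621, + strand): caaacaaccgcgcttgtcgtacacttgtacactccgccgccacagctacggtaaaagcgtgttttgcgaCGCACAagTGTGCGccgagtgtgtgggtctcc
usp-4 (chrIV:6756581-6756681, + strand): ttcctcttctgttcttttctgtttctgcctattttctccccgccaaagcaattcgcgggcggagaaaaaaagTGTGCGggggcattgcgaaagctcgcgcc
F39G3.3 (chrV:4731553-4731653, + strand): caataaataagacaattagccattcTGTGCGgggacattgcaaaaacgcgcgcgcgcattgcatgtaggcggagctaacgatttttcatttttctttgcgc

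The next 4 windows show each form of the CHE-1 core, GAAACC in its 2 highest peaks, plrg-1 and rps-28, and GAAGCC in tbg-1, the highest of the 3 peaks with that form, and gtsf-1, the lowest.

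plrg-1 (chrV:10808023-10808123, - strand): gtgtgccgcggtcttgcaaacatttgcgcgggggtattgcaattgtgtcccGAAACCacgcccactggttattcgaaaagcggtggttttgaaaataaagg
rps-28 (chrIV:1659201-1659301, + strand): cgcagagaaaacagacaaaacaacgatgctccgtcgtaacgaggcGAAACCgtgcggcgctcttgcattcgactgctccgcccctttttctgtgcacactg
tbg-1 (chrIII:9629908-9630008, - strand): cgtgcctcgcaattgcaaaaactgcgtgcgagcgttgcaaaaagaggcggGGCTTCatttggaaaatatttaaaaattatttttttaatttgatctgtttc
gtsf-1 (chrIV:16865668-16865768, + strand): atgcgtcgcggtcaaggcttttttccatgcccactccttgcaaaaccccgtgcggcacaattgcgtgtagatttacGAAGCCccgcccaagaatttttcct

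The share of IDR peaks in one-sided promoters was above that of all regions away from tRNA, snoRNA and snRNA genes and below that of divergent promoters. IDR peaks made up 191 of 7208 regions, or 2.65% (95% interval 2.29 to 3.05%). The background was 2.57% of all nuclear regions and 1.63% of the 29414 nuclear regions away from tRNA, snoRNA and snRNA genes. The lower background excludes those genes, as the one-sided regions do, and its interval of 1.49 to 1.78% lies below that of one-sided promoters. It includes the one-sided regions themselves. Divergent promoters, with coding starts on both strands within 1 kb, had 110 IDR peaks among 980 regions (11.2%, 95% interval 9.32 to 13.4%). Regions in no promoter had 178 among 21226 (0.839%, 0.720 to 0.971%). The 3 intervals do not overlap.

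By sequence covered, one-sided promoters made up 20.5% of the nuclear genome, 24.0% of nuclear regions and 24.8% of the 770 nuclear IDR peaks. Divergent promoters made up 1.70% of the genome, 3.27% of regions and 14.3% of IDR peaks. Away from tRNA, snoRNA and snRNA genes, one-sided promoters took 22.4% of regions from nuclear rank 20001 down to 29978 and 25.03% at ranks 5001 to 10000. It was 34.6% at ranks 771 to 2000, 40% at ranks 401 to 770, 39.2% at ranks 201 to 400 and 50% at ranks 101 to 200, where 36 regions were left. Among the 23 such regions of the first 100 ranks it was 26.1%, or 6 regions. The share was thus higher from rank 2000 upwards than below it, other than in the small group at the very top, and it did not climb at each step.

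**Figure D1:**
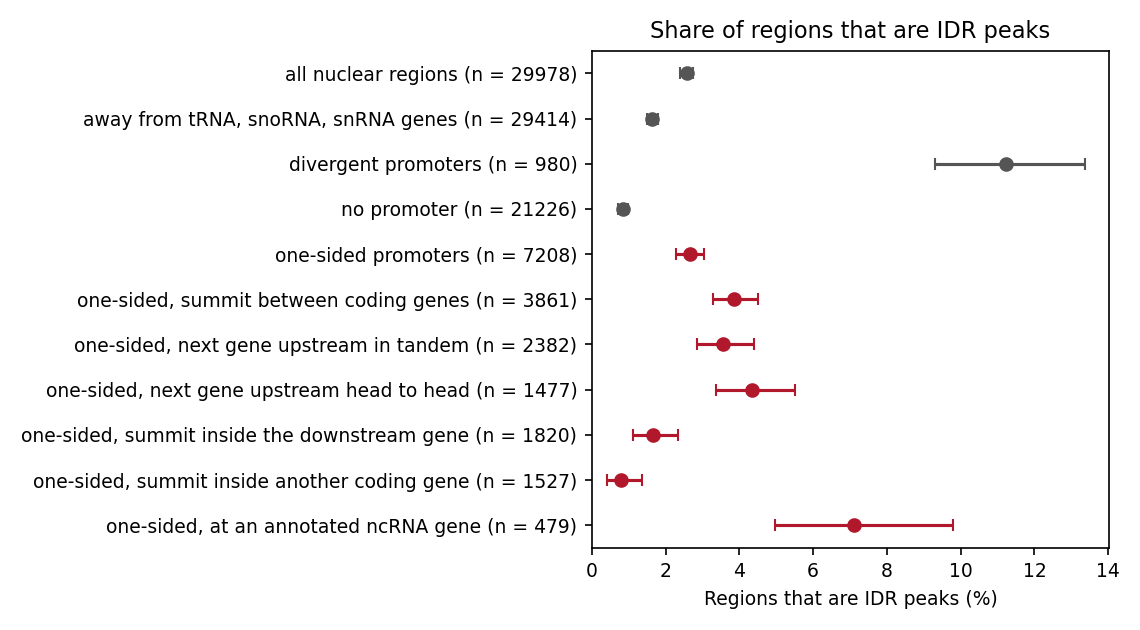
Share of regions that are IDR peaks (x axis, percent), by location of the summit, with exact binomial 95% intervals. Red points are regions in one-sided promoters, which lie at 2.65% together and range from 0.786% inside another coding gene to 7.10% at an annotated ncRNA gene, and grey points are the other sets, with divergent promoters highest at 11.2%.

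Where the summit lay inside the one-sided promoter went with the share of IDR peaks. Summits between coding genes had 149 IDR peaks among 3861 regions (3.86%, 3.27 to 4.52%). Summits inside the downstream gene itself, upstream of one of its later transcript starts, had 30 among 1820 (1.65%, 1.11 to 2.34%), and 27 of these 30 were intronic. Summits inside another coding gene had 12 among 1527 (0.786%, 0.407 to 1.37%). Coding exons held 9 IDR peaks among 1492 regions (0.603%). So 78.0% of IDR peaks lay between genes (71.5 to 83.7%), against 52.9% of the 7017 regions outside the IDR set (51.7 to 54.1%). The highest peak inside its own gene was that in an intron of K05C4.2, 268 bp upstream of an internal start, with a score of 443.

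Between genes, the next coding gene on the upstream side pointed the same way (tandem) for 85 IDR peaks and away from the summit (head to head) for 64. A head-to-head partner has its start over 1 kb away by the definition of a one-sided promoter. IDR peaks made up 3.57% of tandem regions (2.86 to 4.39%) and 4.33% of head-to-head regions (3.35 to 5.50%), and these intervals overlap. The spacing from the upstream gene to the coding start differed within the tandem promoters. It had a median of 607 bp at IDR peaks and of 1457 bp at the other regions. Where tandem genes were up to 500 bp apart, 34 of 372 regions were IDR peaks (9.14%, 6.41 to 12.5%), against 51 of 2010 with wider spacing (2.54%, 1.89 to 3.32%). Spacing of up to 500 bp also places the summit within 500 bp of the start by construction. Spacing and distance to the start were not separated. The interval of the closely spaced tandem promoters overlaps that of divergent promoters, 9.32 to 13.4%.

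Summits of IDR peaks lay nearer to the start than those of other regions. The median distance was 299 bp upstream of the nearest coding start (95% order-statistic interval 249 to 346 bp) for the 191 IDR peaks and 403 bp (390 to 414 bp) for the other 7017 regions. The bases of one-sided promoters themselves had a median of 489 bp. Within 500 bp lay 74.3% of IDR peaks, 59.4% of other regions and 51.1% of the bases. The most IDR peaks for 100 bp were found at 101 to 200 bp, with 42 of 965 regions (4.35%, 3.15 to 5.84%), and at 201 to 300 bp, with 36 of 901 (3.996%, 2.81 to 5.49%). Immediately upstream of the start, at 1 to 100 bp, 18 of 938 regions were IDR peaks (1.92%, 1.14 to 3.02%), and at 701 to 800 bp 6 of 574 were (1.05%, 0.385 to 2.26%). Just inside the 1 kb limit, at 901 to 1000 bp, 11 of 543 regions were IDR peaks (2.03%), and just outside, at 1001 to 1100 bp, 10 of 514 were (1.95%).

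**Figure D2:**
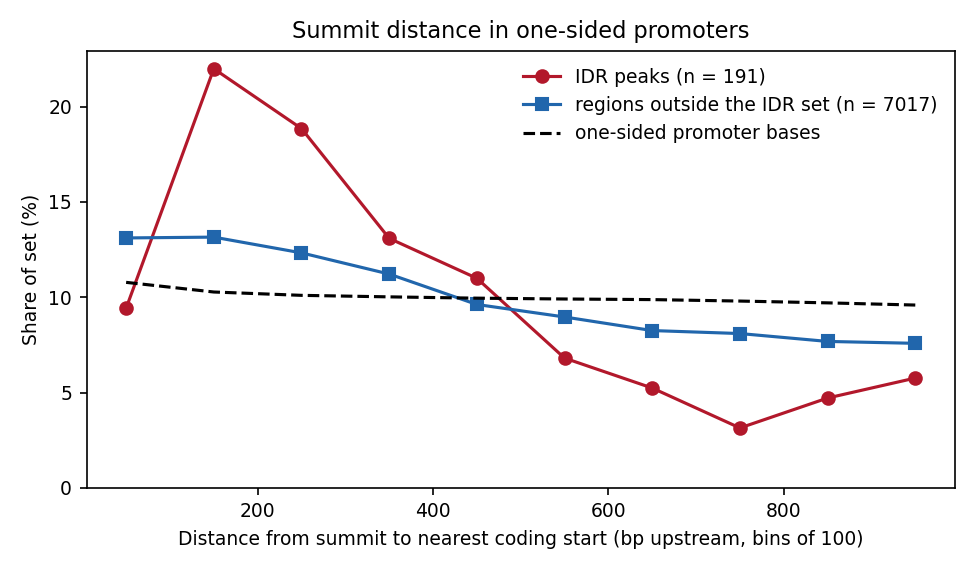
Distance from the summit to the nearest coding start (x axis, bp upstream in bins of 100) against the share of each set in the bin (y axis, percent), for IDR peaks, regions outside the IDR set and all one-sided promoter bases. IDR peaks reach 21.99% at 101 to 200 bp and fall to 3.14% at 701 to 800 bp, while the bases stay between 9.59% and 10.8%.

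The downstream starts of IDR peaks also differed in kind from those of other regions. A splice acceptor sequence (TTNCAG, as in trans-spliced starts) stood in the 10 bases before the nearest start for 81 of 191 IDR peaks (42.4%, 35.3 to 49.8%), against 25.9% of the other regions (24.9 to 26.97%). The annotated start coincided with the start codon for 13.1% of IDR peaks (8.65 to 18.7%) and for 23.5% of the others (22.5 to 24.5%). These starts carry no annotated leader sequence. The strand was balanced, with 89 of 191 downstream genes on the plus strand.

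IDR peaks were further met by annotated transcripts of the class ncRNA, which holds non-coding RNAs of no more specific kind. Such a gene lay within 100 bp of the summit for 34 of 191 IDR peaks (17.8%, 12.7 to 24.0%) and for 445 of the others (6.34%, 5.78 to 6.94%). Of the 479 regions at such a gene, 7.10% were IDR peaks, against 2.33% of those without. At regions in divergent promoters or in no promoter, 48 of 1206 with such a gene were IDR peaks (3.98%, 2.95 to 5.24%). That share, too, was above the 1.63% of all nuclear regions away from tRNA, snoRNA and snRNA genes. A higher share at such genes was thus not particular to one-sided promoters. At microRNA and piRNA genes there was 1 IDR peak each. RefSeq annotated no tRNA, snoRNA, snRNA or ribosomal RNA gene within 100 bp of any of the 7208 summits.

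The 20 highest one-sided promoter peaks ranked within the first 216 regions of replicate 1 and the first 250 of replicate 2. Of these 20 peaks, 17 lay between genes, 8 were on chromosome III, and 11 were narrow, at up to 300 bp, where the median width of the 191 was 484 bp. Among all 191 IDR peaks, 149 lay between genes (78.0%), 30 were on chromosome III (15.7%) and 14 were up to 300 bp wide (7.33%). None of the 20 was near a tRNA, snoRNA or snRNA gene, the closest being 1433 bp away. The score is the value the authors deposited for each region against their control, and its scale is unstated.

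The highest peak, at chrIII:8043768-8044172, lay 524 bp upstream of K12H4.5. Its score was 773 in the list of both replicates (rank 29), 406 in replicate 1 (rank 35) and 362 in replicate 2 (rank 23). T13C5.6 followed with a peak at chrX:6207657-6208069, 167 bp upstream, with scores of 713, 406 (rank 36) and 309 (rank 34). The peak 379 bp upstream of W01D2.3, at chrII:14804343-14804941, had scores of 641, 385 (rank 44) and 272 (rank 46). All 3 genes carry a sequence name only, and both replicates placed all 3 peaks among their first 50 regions.

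The gene ftt-2, which codes for a 14-3-3 protein that binds phosphorylated partners, had a pair of overlapping peaks. The higher one, at chrX:11605785-11606277 and 597 bp upstream, had a score of 463 and ranks of 95 and 91 in the replicates. The lower one, with its summit at 803 bp, had a score of 283. Each replicate region met both of them, so their replicate values are the same measurement. ncRNA genes lay within 100 bp of both summits. The peak 994 bp upstream of dhs-8, named as a short-chain dehydrogenase gene, lay near the outer limit, at chrII:14496911-14497193, with a score of 425, and replicate scores of 243 and 176.

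Some of the remaining genes among the 20 have a known role and are described here one by one, while others, such as M01F1.9 and R148.3, carry sequence names only. The gene rpl-3, for a protein of the large ribosomal subunit, had a peak 283 bp upstream (chrIII:3867480-3867660) with a score of 352 and ranks of 146 and 145. At eif-3.C, for a subunit of translation initiation factor eIF3, the peak (chrI:9979819-9979958) had a score of 300 and ranks of 160 and 250. The peak at plrg-1, whose human counterpart is a spliceosome component, lay 161 bp upstream with a score of 305 and ranks of 216 and 171. At npp-8, for a nuclear pore protein, it lay 157 bp upstream with a score of 289 and ranks of 206 and 208. Peaks upstream of swsn-3 (score 326), a gene of a SWI/SNF chromatin remodelling complex, and of sms-3 (score 320), a sphingomyelin synthase gene, had replicate ranks of 165 and 184, and of 149 and 206. Thus rpl-3 and npp-8 were ranked nearly alike by both replicates, while eif-3.C and usp-4 (ranks 135 and 231) were ranked higher in replicate 1.

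**Figure D3:**
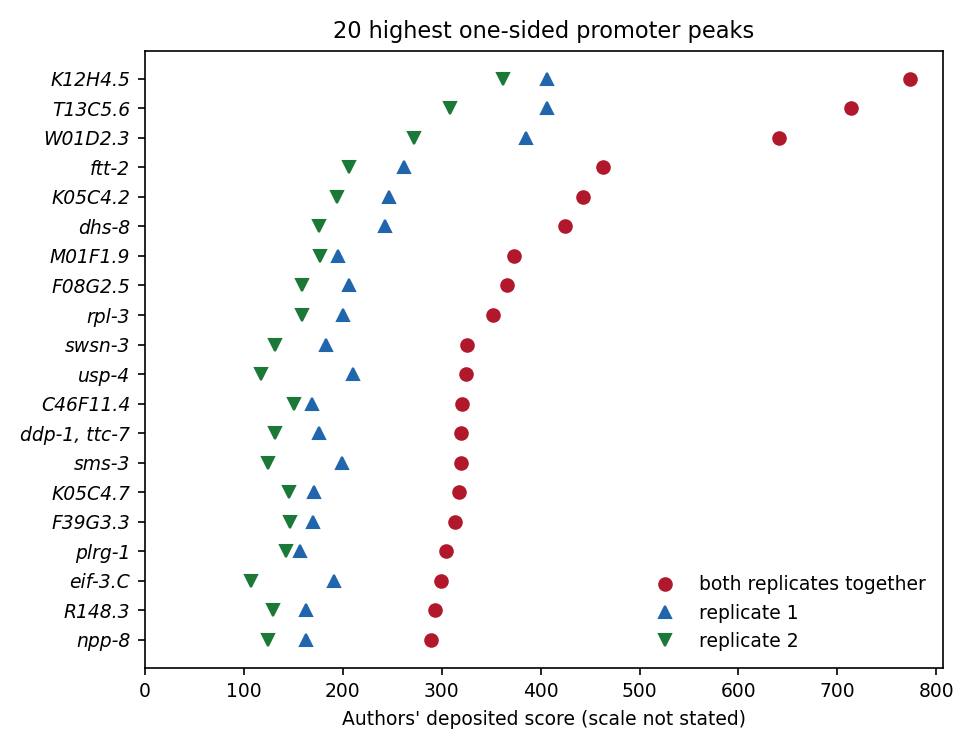
Authors' deposited score (x axis, scale not stated) of the 20 highest one-sided promoter peaks, by downstream gene, in the list of both replicates together (circles) and of the overlapping region in replicate 1 and replicate 2 (triangles). The score in the list of both replicates falls from 773 to 289, and replicate 1 lies above replicate 2 for each of the 20 peaks, in lists that were scored separately.

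Every one of the 191 IDR peaks was met by a region of both replicates, by an overlap of at least 1 bp (100%, 98.1 to 100%). Of the other 7017 regions, 61.3% were met in both (60.2 to 62.5%), 2552 in 1 replicate and 163 in neither. A region can thus be in the list of both replicates together without a counterpart in each. The IDR procedure compares replicates by design, so the value for IDR peaks is partly fixed by that choice.

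Strong ranks in both replicates were less common. A region within the first 791 of both replicates met 111 of the 191 IDR peaks (58.1%, 50.8 to 65.2%). It was 65.5% of IDR peaks in divergent promoters (55.8 to 74.3%), 55.1% of those in no promoter (47.4 to 62.5%) and 86.3% of those at tRNA, snoRNA and snRNA genes (81.8 to 90.0%). The median scores of these sets had the same order, at 147.8 in no promoter, 158.6 in one-sided promoters, 171.0 in divergent promoters and 255.6 at those genes. These shares were not compared at equal score. By position in the set, all 50 highest one-sided promoter peaks, 41 of the next 50 and 20 of the last 91 were within the first 791 of both. A further 46 peaks were so in replicate 1 only, 24 in replicate 2 only and 10 in neither. The Spearman correlation of the replicate scores over the 191 peaks was 0.568, a description across peaks of a set selected by score. It was 0.654 within the 50 highest peaks, -0.375 within the next 50 and -0.320 within the last 91. These blocks were cut by the score of both replicates together, which restricts how the replicate scores can vary within a block. The values within blocks therefore do not show whether the replicates agree less at the lower peaks.

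Replicate ranks differed by a median factor of 1.44, and by over 2 for 45 peaks. Of these 45, 31 were weaker in replicate 2 and 14 in replicate 1. The most uneven peak, 140 bp upstream of pfd-5 and exos-9, had rank 520 in replicate 1 and 9248 in replicate 2. That of mbk-2 had ranks 465 and 6073, and that of pdi-2 301 and 3410. In the other direction, the peak of cls-3 was the most uneven, with rank 2342 in replicate 1 and 425 in replicate 2, and that of rps-11 had ranks 1323 and 259. These were named after their values were seen. The peaks just inside the IDR set were those of mes-2 (score 127.2, rank 791), gsp-2 (127.2, rank 790), miz-1 (127.5), unc-108 (127.5) and a second one of lem-2 (128.3). Just outside were pir-2 (127.02, rank 792), F41F3.8 (126.9), pig-1 (126.7), his-31 (126.4) and rpl-14 (126.3).

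**Figure D4:**
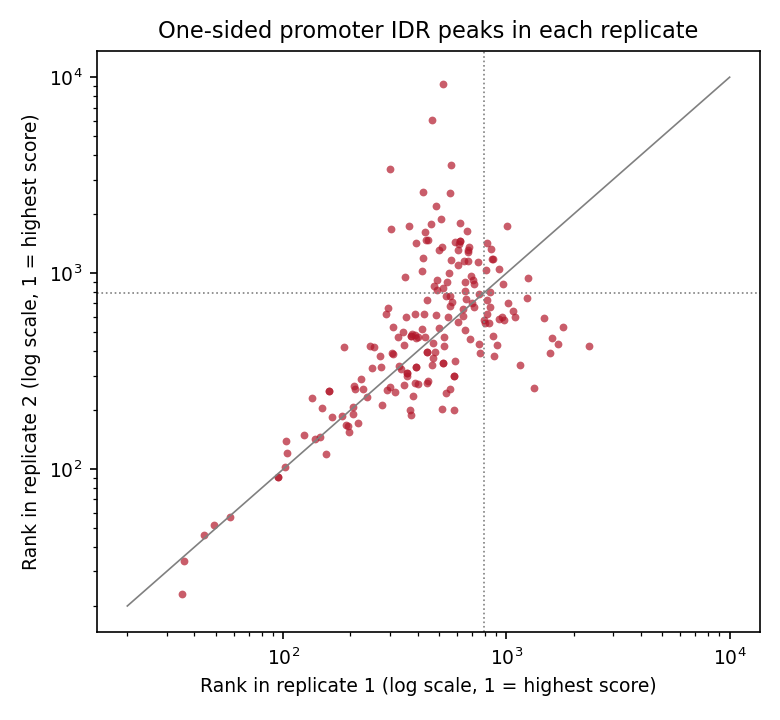
Rank of the overlapping region in replicate 1 (x axis) and replicate 2 (y axis) for the 191 IDR peaks in one-sided promoters, both on log scales with 1 as the highest score. Dotted lines mark rank 791 and the diagonal marks equal rank; points hug the diagonal among the highest peaks and spread towards the dotted lines, with 1 peak at 520 and 9248.

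Chromosome X held 45 IDR peaks among 1126 one-sided promoter regions (3.996%, 2.93 to 5.31%), the highest share. Chromosome V held 24 among 1260 (1.90%, 1.22 to 2.82%), the lowest. Shares were 3.02% on II, 2.61% on III, 2.27% on IV and 2.18% on I. X had 15.3% of one-sided promoter bases and 23.6% of the IDR peaks, while V had 23.8% of the bases and 12.6% of the peaks. The highest peak of each chromosome was at K05C4.2 on I, W01D2.3 on II, K12H4.5 on III, usp-4 on IV (score 324), F39G3.3 on V (score 313) and T13C5.6 on X.

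Summit windows of IDR peaks were rich in G and C. The median content of G and C in the 101 bp was 50.5% (order-statistic interval 49.5 to 51.5%), against 39.6% at the other one-sided promoter regions and 34.7% in windows tiled every 50 bp over one-sided promoters. IDR peaks in divergent promoters had 47.5% and those in no promoter 49.5%. At least 50% G and C was found in 51.3% of IDR windows and 14.8% of the others.

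The 6-mer CGCACA, or TGTGCG on the other strand, was present in 46 of 191 IDR windows (24.1%, 18.2 to 30.8%). It was in 3.72% of the other regions (3.29 to 4.19%) and in 2.22% of the tiled windows. Other regions weighted to the G and C content of the IDR windows held it in 5.78%, against 23.7% of the 190 IDR windows that could be matched. CGCACA was picked for its frequency at these same windows, so its higher share there is a description only. It was in 7 of the 20 highest peaks, 28.0% of the 50 highest, 30% of the next 50 and 18.7% of the last 91. In divergent promoters it was in 22.7% of IDR windows and in no promoter in 8.43%. In its windows it lay at a median of 21 bp from the summit, against 24 bp in the regions outside the IDR set.

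The same regions were also divided by both features. Since CGCACA was picked for its frequency at these IDR windows, the shares that follow also restate that choice and are a description only. With CGCACA and at least 50% G and C, 26 of 101 regions were IDR peaks (25.7%, 17.6 to 35.4%). With that much G and C but no CGCACA it was 72 of 1039 (6.93%, 5.46 to 8.65%). With CGCACA and less G and C it was 20 of 206 (9.71%, 6.03 to 14.6%), and with neither 73 of 5862 (1.25%, 0.977 to 1.56%). Other G and C rich runs were also more frequent at IDR peaks, among them AAACGCGC in 8.90% of windows against 0.827%, and CTTGCGCA in 6.28% against 0.214%. These 8-mers were picked for their difference, which is therefore a description. The rpl-3 window printed above holds CGCACA on both strands.

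The CHE-1 core did not stand out at these summits. GAAACC or GAAGCC was in 9 of 191 IDR windows (4.71%, 2.18 to 8.76%), in 8.11% of the other regions and in 7.16% of the tiled windows. The reversed letters, CCAAAG or CCGAAG, which serve as a composition control, were in 4.71%, 6.07% and 5.60% of the same sets. By form, GAAACC was in 6 IDR windows, those of plrg-1 and rps-28 among them, and GAAGCC in 3. Among the 190 IDR windows that could be matched for G and C, GAAACC was in 3.16%, against 5.74% of other regions. GAAGCC was in 1.58% against 4.48%. For the controls it was 2.11% against 3.94% with CCAAAG, and 2.63% against 4.08% with CCGAAG. The GAAACC of plrg-1 stood directly beside the summit. The 9 peaks had ranks from 183 to 582 in the list.

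Other fixed motifs gave a mixed picture. The GA repeat GAGAGA was in 17.8% of IDR windows (12.7 to 24.0%), 11.4% of other regions and 6.10% of tiled windows, and at matched G and C in 17.2% of other regions. The TATA box TATAAA was in 4.71%, 8.88% and 12.5%, and at matched G and C in 3.60%. The GATA factor site TGATAA was in 1.57%, 7.05% and 10.3%, and at matched G and C in 3.64% of other regions. The splice acceptor TTTCAG was in 4.71%, 15.6% and 19.3%, and at matched G and C in 9.53%. The E-box CACGTG, a site of basic helix-loop-helix factors, was in 2 IDR windows (1.05%).

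**Figure D5:**
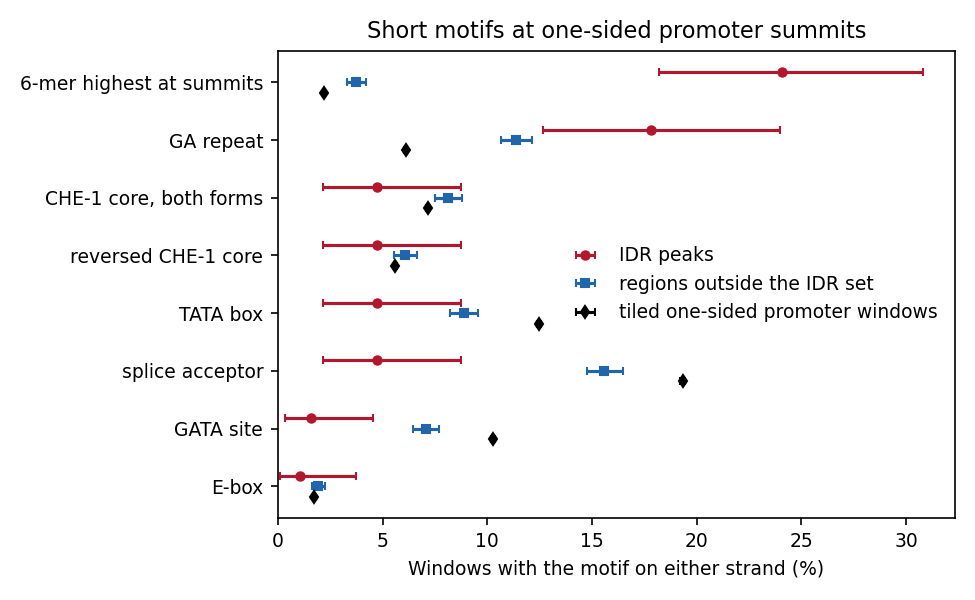
Share of 101 bp windows with each 6-base motif on either strand (x axis, percent) at IDR peaks, at regions outside the IDR set and in windows tiled over one-sided promoters, with exact binomial 95% intervals. The 6-mer highest at summits, picked for that frequency, is in 24.1% of IDR windows against 3.72% and 2.22%. The CHE-1 core is in 4.71% against 8.11% and 7.16%.

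Genes downstream were counted over the 19597 nuclear coding genes with any one-sided upstream sequence. A region of the list lay in the one-sided promoter of 5350 of them (background 27.3%) and an IDR peak in that of 190 (background 0.97%). A pair of IDR peaks lay upstream of 8 genes, and 7 peaks lay upstream of more than 1 gene. Genes with several transcript starts have more upstream sequence, which raises their chance of holding a region.

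The highest shares of genes with an IDR peak were in the lists of the respiratory chain and ATP synthase, of heat shock chaperones and of cytosolic ribosomal proteins, and the intervals of these 3 lists lie above the background of 0.97%. The 23 lists were chosen with earlier results of these data known, and these 3 were picked from them for their shares. The comparison with the background is therefore a description only. Respiratory chain and ATP synthase genes had an IDR peak at 4 of 44 (9.09%, 2.53 to 21.7%). These were nuo-2, for a subunit of complex I (score 171), ucr-2.2, for a core subunit of complex III (score 151), cyc-1, for cytochrome c1 of the same complex (score 145), and cox-5B, for a subunit of cytochrome oxidase (score 132). In this order, their ranks in replicates 1 and 2 were 501 and 527, 489 and 923, 573 and 713, and 621 and 1462. The summit of nuo-2 lay in an exon of another gene. Chaperone genes had 4 of 56 (7.14%, 1.98 to 17.3%). They were hsp-1, a constitutive Hsp70, with a peak 369 bp upstream at a score of 268 and ranks of 210 and 255, hsp-3, an Hsp70 of the endoplasmic reticulum (score 128), and the J-domain co-chaperone genes dnj-9 (score 143) and dnj-5 (score 142). Cytosolic ribosomal protein genes had 5 of 74 (6.76%, 2.23 to 15.1%), namely rpl-3, rps-28, rpl-35, rps-11 and rps-24. Translation factor genes had 1 of 40 (2.5%, 0.0633 to 13.2%) and mitochondrial ribosomal protein genes 1 of 67 (1.49%, 0.0378 to 8.04%; mrpl-55, score 136), and both intervals include the background.

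Among lists of differentiated cells, muscle genes had 2 of 34 (5.88%, 0.720 to 19.7%), an interval that includes the background of 0.97%. They were unc-112, for a kindlin of the muscle attachment (score 150), and unc-70, for beta-spectrin (score 130). Cilia genes had 2 of 84, daf-19, for the RFX factor of cilia genes (score 148, ranks 392 and 1423), and ift-43, for a subunit of intraflagellar transport (score 136). Pan-neuronal genes had 1 of 28, unc-119, and actin and tubulin genes 1 of 21, tbg-1, for gamma-tubulin (score 177), which shares its promoter with rpac-19. Chemoreceptor genes had 1 of 1289, srbc-65 (0.0776%, 0.00196 to 0.431%). The 1 gene of 191 taken by the collagen pattern, dpy-23, codes for an adaptor protein subunit and not for a collagen. No IDR peak lay in the one-sided promoters of the listed 268 nuclear hormone receptor, 143 neuropeptide, 62 homeobox ceh, 57 histone, 37 splicing factor, 32 proteasome, 25 hlh, 20 T-box, 18 V-ATPase, 11 GATA factor and 6 Hox genes. These counts hold for the listed genes only, and the lists leave out some genes of their kinds. The peak of plrg-1, described above, is not counted among the splicing factor genes. Those of nduf-9 and nduf-11, named as complex I genes, are not counted among the respiratory chain genes. A 0 among 268 genes allows a share of up to 1.37%, and a 0 among 6 of up to 45.9%, so the small lists say little.

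Regions of any rank were most frequent in other lists. They lay at 27 of 34 muscle genes (79.4%, 62.1 to 91.3%), 19 of 28 pan-neuronal genes (67.9%, 47.6 to 84.1%), 4 of 6 Hox genes (66.7%, 22.3 to 95.7%), 10 of 21 actin and tubulin genes (47.6%, 25.7 to 70.2%) and 19 of 40 translation factor genes (47.5%, 31.5 to 63.9%), against the background of 27.3%. The intervals of the Hox list and of the actin and tubulin list include that background. Chemoreceptor genes had them at 107 of 1289 (8.30%, 6.85 to 9.94%). Lists were not matched for the number of starts per gene, and those named here were picked for their shares.

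The genes known for CHE-1 and for the strain were checked in the same way. No region lay in a one-sided promoter of che-1, of the receptor guanylyl cyclase genes of the ASE list, or of tax-2, tax-4, cog-1 and lim-6. Of the 30 coding ASE genes, die-1, a zinc finger regulator of ASE asymmetry, alone had any. The higher of its 2 regions lay 259 bp upstream, with a score of 51.7 (rank 12346), rank 25078 in replicate 1 and no counterpart in replicate 2. With 0 of 30 genes at an IDR peak, a share of up to 11.6% is allowed. At unc-119, which is mutated in this strain and whose product carries lipid-modified proteins in neurons, there was an IDR peak (chrIII:10906158-10906641). The summit lay in an intron of the gene, 56 bp upstream of one of its later transcript starts. This peak had a score of 137 (rank 669), with ranks of 873 and 1176 in the replicates, both beyond the first 791. Whether its signal comes from the chromosomal locus or from transgene sequence cannot be told apart.

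A few peaks rest on less certain ground. Of the 191, 13 overlapped a stronger region of the list, and for 4 of them, among these the peak of sec-15 at 114 bp from a tRNA gene, the stronger region was at a tRNA, snoRNA or snRNA gene. The replicate ranks of these 4, such as 49 and 52 for sec-15, are those of a region that also met the stronger neighbour. Overlap was common in the list as a whole. Any other region of the list overlapped 126 of 191 IDR peaks (66.0%) and 2877 of the 7208 one-sided promoter regions (39.9%). A stronger region overlapped 1492 of the 7208 (20.7%). Overlapping regions are not independent counts, and the binomial intervals do not allow for this. At 5 peaks, of sto-4, spat-3, unc-85, eel-1 and rps-24, the 30 bases around the summit occurred more than once in the nuclear genome, up to 132 times for sto-4 and spat-3. Of the 44 regions just past the exclusion, with a summit at 101 to 200 bp from a small RNA gene, 4 were IDR peaks (9.09%).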

How the data were processed

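Regions were deposited by the authors in build ce11 (WBcel235) for each replicate, for both replicates together and as an IDR set. The score is a signal value relative to a control, per the deposited text notes, and the other column used is the summit offset. The aligner, peak caller, IDR threshold and score scale are not stated by the labels or notes. The ce10 lists were not used here. No counts are given, so depth is unknown. Summits were assigned to Ensembl release 115 transcript starts with Python 3.11.15, numpy 2.4.6, pandas 2.3.3 and scipy 1.17.1, and drawn with matplotlib 3.10.9. Sequences come from RefSeq's WBcel235 genome. Replicate regions were matched by at least 1 bp, and where several met a peak the strongest was taken. Named genes are the 20 highest peaks, up to 4 genes per list, ASE genes with a region, che-1, unc-119, the highest peak of each chromosome and 5 peaks on each side of the IDR limit. Outside that rule, gtsf-1, pfd-5, exos-9, mbk-2, pdi-2, cls-3, sec-15, nduf-9, nduf-11, rps-24 and the other genes at repeated sequence were named after their values were seen. The members and the 23 gene lists were chosen with earlier results of these data known. The steps were tested on simulated data. Alternatives covered the upstream limit, the exclusion distance, the starts used, the matching rule, the window and each replicate alone. Replicates are biological replicates per the labels.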

Additional observations from a re-analysis of the deposited data

How the results depend on the processing

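Of 102 values recomputed under other settings, 19 moved and 83 did not, where a share or median moved if it left the interval of the reported value and a count if it changed by over 1.5 times. Counts within that limit still varied, from 5554 regions with outermost starts to 10803 with 2 kb, against 7208, and from 172 genes with outermost starts to 252 without the exclusion, against 190. With an upstream limit of 500 bp there were 4674 regions, 3.79% of them IDR peaks, at a median distance of 224 bp. With 2 kb the share was 1.93% and the distance 423 bp. Without the exclusion of tRNA, snoRNA and snRNA genes, 3.54% of regions were IDR peaks and they made up 33.8% of nuclear IDR peaks. With the outermost start of each gene only, the share was 3.06%, and 87.6% of IDR summits lay outside coding gene bodies. With 1 replicate's list in place of the list of both, the 791 highest-scoring regions of that list stood in for the IDR set. The share outside coding gene bodies then ran from 69.4% without replicate 1 to 78.6% without replicate 2. Limited to the highest 0.5 of the IDR set, IDR peaks made up 0.888% of regions and 17.1% of that set, 100% ranked high in both replicates, 84.4% lay outside gene bodies and 67 genes had one. With summits within 100 bp, 93.7% of IDR peaks were met in both replicates. With 100 bp on either side of the summit, the CHE-1 core was in 13.1% of windows and the median G and C was 44.8%. With 25 bp it was 52.9%. These settings change the windows or the set by construction. Leaving out IDR peaks that overlap a stronger region, or those at repeated sequence, moved none of the 9 values recomputed for each. Both settings were chosen after seeing the data. They took out only 13 and 5 of the 191 IDR peaks. All 7208 regions, of which 1492 overlap a stronger region, stayed in the denominator. Both settings could thus change the values little, and they do not test how overlap among all regions bears on the shares. No paired analysis was possible because the study has 1 group. Unknown depth, 2 replicates and the lack of an untagged group limit all values.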
